A study of Mus musculus with 22 samples.

Results

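Mouse mammary cells that carried an inducible CYP19A1 (aromatase) transgene were compared with cells that carried 1 conditional Brca1 allele, in 2 growth media and both in culture and as allografts. The CYP19A1 cells had the genotype Tet-op-CYP19A1MMTV-rtTA/p53-/+/MMTV-Cre, and the Brca1 cells, here called Brca1het, had the genotype Brca1fl 11/WT/MMTV-Cre/Trp53-/+. Both genotypes therefore shared a single mutant p53 allele and MMTV-Cre, and no group of the comparison lacked them. Of the 22 libraries of the series, 11 belonged to the comparison, chosen by genotype from a table of 16 libraries. The 4 CYP19A1 libraries were a culture in conditional-reprogramming conditions (CRC), a culture in the mammary-optimised medium (EpiC), the CRC allograft 6C and the EpiC allograft 7B. The 7 Brca1het libraries were 1 CRC culture, 1 EpiC culture, the CRC allografts 10B, 10C and 11C, and the EpiC allografts 4C and 5A. The 5 libraries with both Brca1 alleles conditional (Brca1hom, Brca1fl11/fl11/MMTV-Cre/Trp53-/+) were set beside them where stated.

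The cells came from C57Bl/6 nulliparous females, whose age the labels do not give, and the allografts were grown in mammary glands of NU (NCr)-Foxn1nu hosts, which lack T cells but keep macrophages and other host cells. The MMTV promoter that drives Cre and rtTA is active mainly in mammary epithelium. The labels do not say whether the agent that switches on a Tet-op transgene was given, nor which cultures gave rise to which allografts. Each CYP19A1 group held 1 library, so the spread between animals of that genotype within a medium and state was not measured, and nothing in the labels shows that 10B, 10C and 11C came from separate donors. The p-values then rest on the spread between Brca1het allografts of the same medium, which may be technical. They also rest on how the genotype difference varied between the groups of medium and state. The labels do not show that the CYP19A1 libraries came from separate donors either. If these libraries share a donor, genotype cannot be told from donor. The same direction in every group would then not be independent replication.

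Aromatase turns androgens into oestrogens, and mammary cells that carry the transgene are used to study local oestrogen production. Oestrogen acts through the receptor encoded by Esr1 and raises genes such as Pgr in luminal epithelium. Brca1 acts in homologous recombination, the repair of DNA breaks from an intact copy, and p53 restrains growth after DNA damage.

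The summed FPKM of the 11 libraries ranged from 466441 to 825216, and 11164 to 11784 genes reached 1 FPKM (fragments scaled to transcript length and library size). Across genes, the 3 Brca1het CRC allografts correlated with each other at 0.97 to 0.987 and the 2 EpiC allografts at 0.937. The CYP19A1 libraries correlated with Brca1het libraries of the same medium and state at 0.928 to 0.984, a range that overlaps that within Brca1het. The epithelial gene Epcam was high in all 4 cultures (253 to 454 FPKM) and low in all 7 allografts (0.419 to 4.0 FPKM), so the allografts showed little of this defining marker of the labelled tissue. Each allograft library mixed grafted and host cells, in which fewer cells of a type and less RNA per cell cannot be told apart.

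The genes that define the genotypes were read first. Mouse Cyp19a1 was listed at 0 in all 4 CYP19A1 libraries and at no more than 0.014 FPKM in Brca1het libraries. The transgene is written in the labels as the human gene, and the mouse row need not take its reads, so expression of the transgene was not checked here. Brca1 was at 3.95, 2.59, 2.41 and 3.38 FPKM in CYP19A1 CRC culture, EpiC culture, 6C and 7B. The Brca1het values were 3.90 and 3.60 FPKM in the CRC and EpiC cultures, at 3.44, 3.11 and 3.37 FPKM in 10B, 10C and 11C, and at 5.61 and 2.02 FPKM in 4C and 5A. The genotypes overlapped, at 3.08 ± 0.717 (SD, n = 4) against 3.58 ± 1.08 FPKM (SD, n = 7), and the fitted difference was −0.18 on the log2(FPKM + 1) scale (SE 0.24, adjusted p = 0.878, limma). A gene-level value of this kind does not separate a deleted from an intact exon.

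Trp53 was at 26.7, 29.4, 32.6 and 14.6 FPKM in CYP19A1 CRC culture, EpiC culture, 6C and 7B. Brca1het libraries read 19.3 FPKM in CRC culture, 2.09 FPKM in EpiC culture, 13.5, 15.9 and 15.1 FPKM in 10B, 10C and 11C, and 15.5 and 16.6 FPKM in 4C and 5A. The 3 CYP19A1 libraries other than 7B lay above all 7 Brca1het libraries, while 7B lay below both EpiC allografts of the other genotype. The fitted difference of 1.08 (SE 0.42) did not pass the test (adjusted p = 0.812, limma). Esr1 was low throughout, at 0.411 to 2.18 FPKM in CYP19A1 and 0.198 to 2.39 FPKM in Brca1het, with a difference of 0.22 (SE 0.32, adjusted p = 0.892, limma). Pgr, the progesterone receptor gene and a target of Esr1, stayed under the filter, at no more than 0.218 FPKM in CYP19A1 and 0.407 FPKM in Brca1het.

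**Figure D1:**
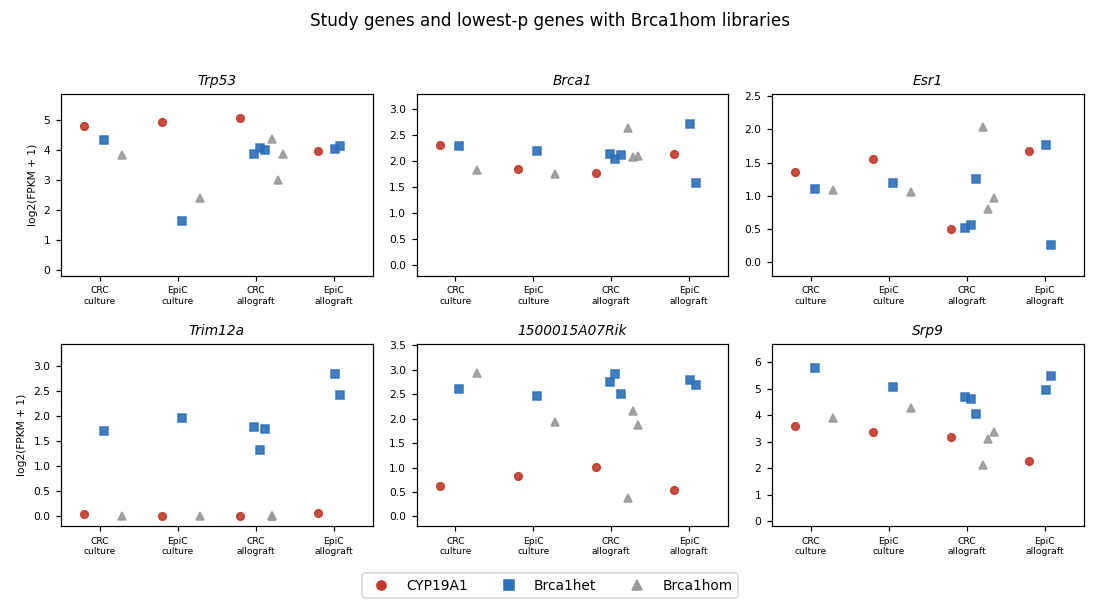
Level of 6 genes as log2(FPKM + 1) on the vertical axis, by medium and state on the horizontal axis, with 1 point a library; circles are CYP19A1, squares Brca1het and triangles Brca1hom, and equal values of a group coincide. Trim12a lay near 0 in CYP19A1 and Brca1hom libraries and at 1.5 FPKM or more in every Brca1het library, while Brca1 and Esr1 overlapped between genotypes.

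Across all genes the genotypes differed in few genes that passed the test. Of 12269 genes that averaged 1 FPKM or more, 2 were called with medium and state as covariate (0.0163%, limma, Benjamini-Hochberg adjusted p under 0.05), and both fell in CYP19A1. Before adjustment, p lay under 0.05 for 677 genes (5.52%), of which 348 were higher and 329 lower in CYP19A1 (2.84% and 2.68%).

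Trim12a, a member of the TRIM family of RING-finger genes on chromosome 7, was at 0.028 FPKM in CYP19A1 CRC culture, 0 in EpiC culture, 0 in 6C and 0.0515 FPKM in 7B. Against this, Brca1het stood at 2.24 FPKM in CRC culture, 2.88 FPKM in EpiC culture, 2.42, 1.5 and 2.33 FPKM in 10B, 10C and 11C, and 6.17 and 4.34 FPKM in 4C and 5A. No library of one genotype reached the level of the other, and the gene was lower in CYP19A1 by −1.95 (SE 0.228, adjusted p = 0.0384, limma). It was listed at 0 in all 5 Brca1hom libraries as well, and the difference between CYP19A1 and Brca1hom was −0.16 (SE 0.22, adjusted p = 0.956, limma). Its paralog Trim12c, named after its values were seen, was measured in all 11 libraries at 2.55 to 8.59 FPKM and differed by 0.35 (adjusted p = 0.817, limma). Of the 50-base words of Trim12a transcripts, 3.96% also occurred in Trim12c, so most of the gene can be told from it.

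1500015A07Rik, an uncharacterised transcript of chromosome 18, was at 0.539, 0.778, 1.01 and 0.451 FPKM in CYP19A1 CRC culture, EpiC culture, 6C and 7B. For Brca1het the values were 5.05 and 4.52 FPKM in the CRC and EpiC cultures, at 5.76, 6.52 and 4.63 FPKM in 10B, 10C and 11C, and at 5.87 and 5.43 FPKM in 4C and 5A. The 2 ranges were far apart and each was narrow, in cultures and allografts alike. The difference was −1.88 (SE 0.193, adjusted p = 0.0228, limma). The Brca1hom libraries did not form 1 level, since they read 6.60 and 2.79 FPKM in the CRC and EpiC cultures and 0.298, 3.45 and 2.64 FPKM in allografts 1, 2 and 12.

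Both calls rest on few libraries: 1500015A07Rik was still called in 2 of the 11 fits that left out 1 library (those without 11C and without 5A), and Trim12a in 0 of 11. Neither was called without the filter on low values (adjusted p = 0.144 each) or with 10B and 10C averaged (adjusted p = 0.0893 each, limma), while their differences kept their sign in every alternative run.

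A second view asked for size in place of a test. At least a 2-fold difference on the log2(FPKM + 1) scale in the same direction in all 4 groups of medium and state was found for 11 genes (0.0897% of those tested), and all 11 were lower in CYP19A1. They were Trim12a, 1500015A07Rik, Srp9, Krt8, Has2, Cdh2, Fibin, Clcf1, H19, Prl2c2 and Prl2c3. At any size, 1772 genes had the same sign in all 4 groups (14.4%), 862 higher (7.03%) and 910 lower (7.42%) in CYP19A1. The same sign with no overlap within any group was found for 753 genes (6.14%), with 390 higher and 363 lower (3.18% and 2.96%).

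Srp9 encodes a subunit of the signal recognition particle, which directs nascent secreted proteins to the endoplasmic reticulum. It was at 10.9, 9.27, 8.07 and 3.83 FPKM in CYP19A1 CRC culture, EpiC culture, 6C and 7B. In Brca1het it was at 54.8 and 32.2 FPKM in the cultures, 24.7, 23.6 and 15.5 FPKM in 10B, 10C and 11C, and 30.1 and 44.3 FPKM in 4C and 5A. All CYP19A1 values lay below all Brca1het values. The difference of −2.02 (SE 0.294) did not pass after adjustment (adjusted p = 0.129, limma). The Brca1hom libraries read 13.9 and 18.5 FPKM in the CRC and EpiC cultures and 3.29, 7.64 and 9.35 FPKM in allografts 1, 2 and 12. Between CYP19A1 and Brca1hom the difference was −0.44 (SE 0.34, adjusted p = 0.948, limma).

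Krt8 encodes a keratin of simple and luminal epithelium. It was at 220, 205, 17.6 and 57.0 FPKM in CYP19A1 CRC culture, EpiC culture, 6C and 7B. The Brca1het values were 725 and 460 FPKM in the cultures, 227, 366 and 238 FPKM in 10B, 10C and 11C, and 76.9 and 719 FPKM in 4C and 5A. Within each group the CYP19A1 library was the lowest, but the cultures of CYP19A1 overlapped the allografts of Brca1het. The difference was −2.35 (SE 0.602, adjusted p = 0.672, limma).

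Has2 encodes a hyaluronan synthase. It was at 1.82, 27.1, 1.5 and 0.316 FPKM in CYP19A1 CRC culture, EpiC culture, 6C and 7B, against 5.16 and 103 FPKM in the Brca1het cultures, 10.3, 7.70 and 8.97 FPKM in 10B, 10C and 11C, and 10.2 and 2.62 FPKM in 4C and 5A. EpiC culture was the highest group of both genotypes. The difference was −1.87 (SE 0.318, adjusted p = 0.313, limma).

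Cdh2 (N-cadherin) was at 0.139 to 4.99 FPKM in CYP19A1 and 0.311 to 17.0 FPKM in Brca1het. Clcf1, a cytokine of the interleukin-6 family, was at 1.08 to 7.13 against 4.07 to 19.9 FPKM, and Fibin, a secreted factor, at 0.1 to 6.96 against 2.38 to 25.9 FPKM. H19, an imprinted long non-coding RNA, was at 5.56, 1.36, 39.8 and 4.87 FPKM in CYP19A1 CRC culture, EpiC culture, 6C and 7B. Brca1het libraries read 24.4 and 8.40 FPKM in the cultures, 176, 234 and 35.1 FPKM in 10B, 10C and 11C, and 84.5 and 94.6 FPKM in 4C and 5A. The value of 6C lay above that of 11C, so H19 overlapped within the CRC allografts.

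Prl2c2 and Prl2c3 encode prolactin-family hormones (proliferins), and Prl2c3 varied most of the 11. It was at 133 FPKM in CYP19A1 CRC culture and under 0.001 FPKM in the other 3 CYP19A1 libraries, against 459 and 85.3 FPKM in the Brca1het cultures and 4.64, 3.5, 21.5, 0.000712 and 4871 FPKM in 10B, 10C, 11C, 4C and 5A. In the EpiC allografts its separation from 4C rests on values near 0. Since 71.5% of the 50-base words of Prl2c2 also occur in Prl2c3, and 60% of those of Prl2c3 in Prl2c2, the split of reads between them is uncertain.

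**Figure D2:**
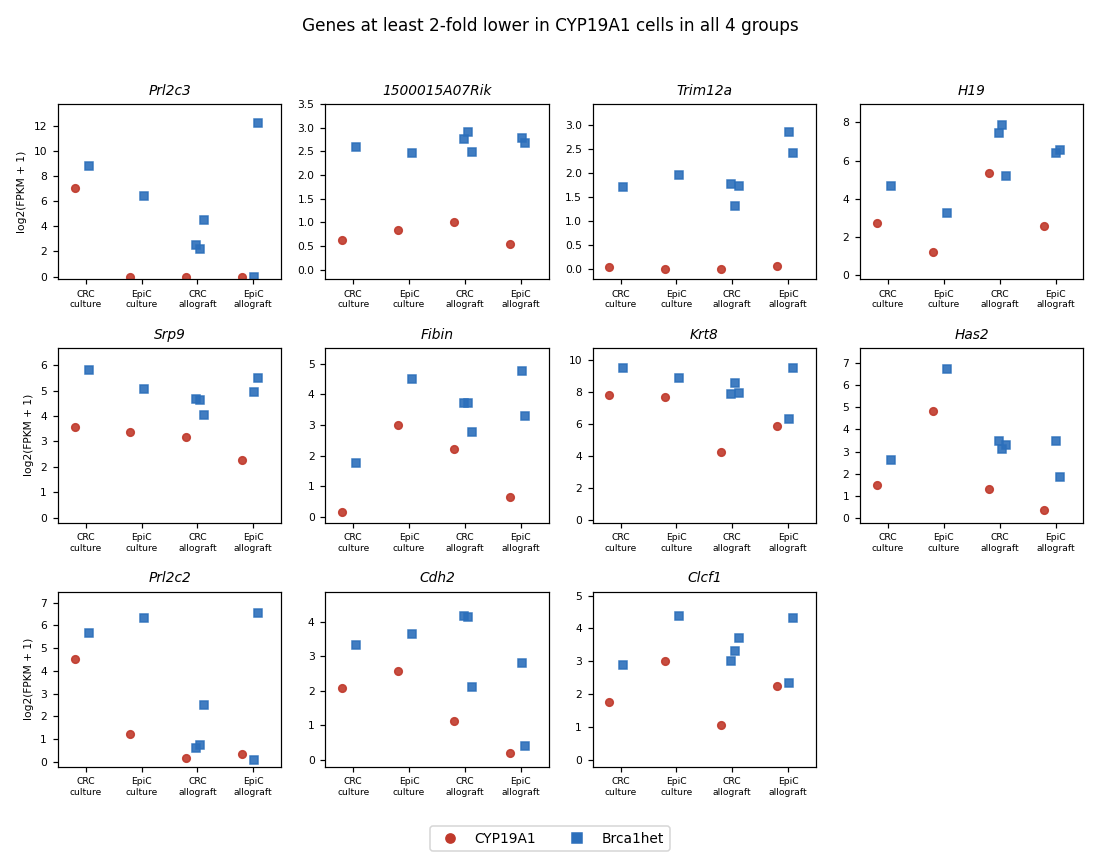
Level of the 11 genes as log2(FPKM + 1), by medium and state, with 1 point a library; circles are CYP19A1 and squares Brca1het. CYP19A1 points lie below the mean of the Brca1het points in all 4 groups, with overlap for H19 in the CRC allografts and for Prl2c2 in the EpiC allografts.

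Of the genes higher in CYP19A1 in all 4 groups, none passed the test, and those with the largest smallest difference are given as values. Tmlhe, an enzyme of carnitine synthesis on the X chromosome, was at 4.01, 7.12, 5.57 and 3.98 FPKM in CYP19A1 CRC culture, EpiC culture, 6C and 7B. Against this, Brca1het stood at 1.88 and 2.51 FPKM in the cultures, 0.607, 0.765 and 2.09 FPKM in 10B, 10C and 11C, and 0.705 and 2.52 FPKM in 4C and 5A. All 4 CYP19A1 libraries lay above all 7 Brca1het libraries, with a difference of 1.22 (SE 0.288, adjusted p = 0.592, limma). The Brca1hom libraries read 2.24 and 9.90 FPKM in the CRC and EpiC cultures and 3.94, 3.92 and 4.30 FPKM in allografts 1, 2 and 12. Between CYP19A1 and Brca1hom the difference was 0.12 (SE 0.30, adjusted p = 0.973, limma), so Tmlhe did not set CYP19A1 apart from Brca1hom.

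Fas, a death receptor and p53 target, was at 21.4, 46.9, 11.9 and 9.16 FPKM in CYP19A1 CRC culture, EpiC culture, 6C and 7B. For Brca1het the values were 4.36 and 23.2 FPKM in the cultures, 7.64, 5.17 and 10.5 FPKM in 10B, 10C and 11C, and 6.13 and 4.36 FPKM in 4C and 5A. The CYP19A1 library was the higher within each group, by 1.02 in the fit (SE 0.277, adjusted p = 0.740, limma). Bgn (biglycan, a matrix proteoglycan) differed by 1.39, with 2034 FPKM in 7B against 204 and 277 FPKM in 4C and 5A and a smaller gap elsewhere (0.64, 0.62 and 0.87 in CRC culture, EpiC culture and CRC allografts). Gypc, a membrane glycoprotein, was also furthest apart there, at 21.5 FPKM in 7B against 1.74 and 2.18 FPKM. Insl6, Fut10, Cyp4v3 and 2610305D13Rik were each higher without overlap within any group, by 1.74, 1.23, 1.01 and 1.27. Figf, Xdh and Mir6236 overlapped within a group, and Irak3 did not.

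**Figure D3:**
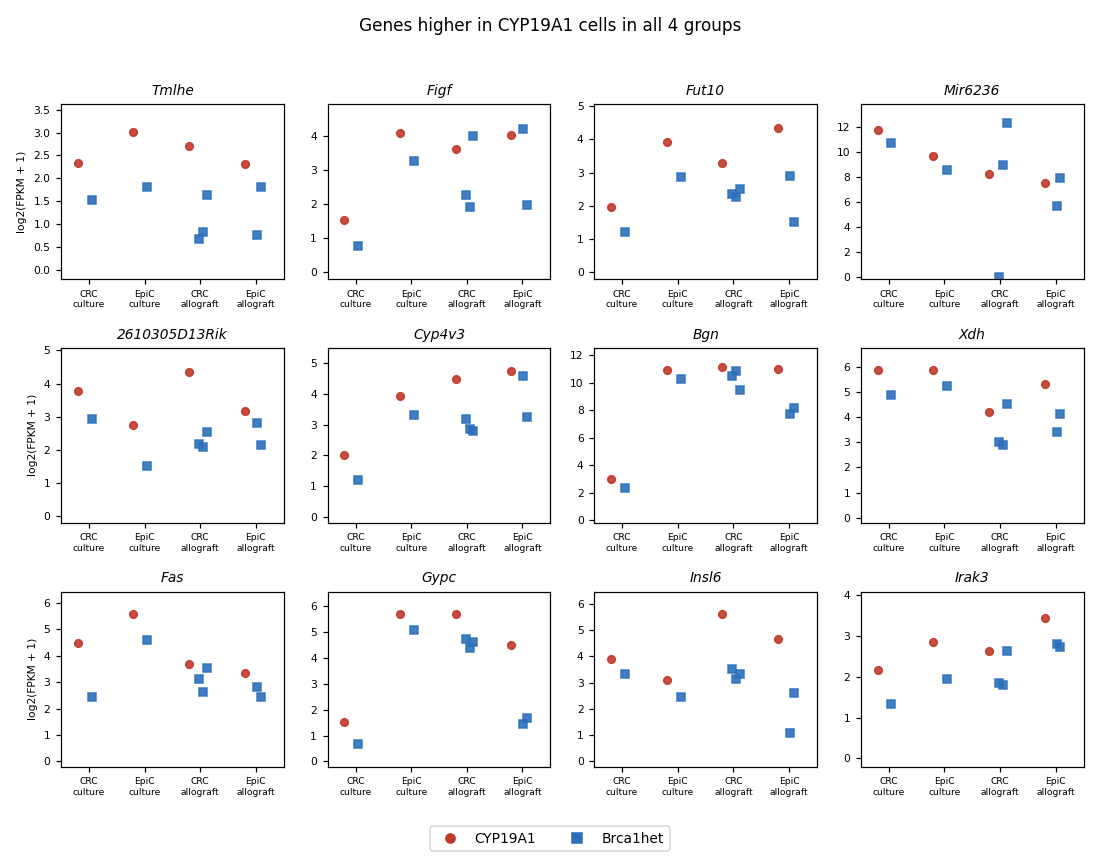
Level of 12 genes as log2(FPKM + 1), by medium and state, with 1 point a library; circles are CYP19A1 and squares Brca1het. The CYP19A1 circle is above the mean of the squares in all 4 groups, by amounts that differ between groups, such as 3.09 for Bgn in EpiC allografts and 0.64 in CRC culture.

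Taking all libraries at once, 34 genes had all 4 CYP19A1 libraries on one side of the 7 Brca1het libraries (0.277%), 13 above and 21 below (0.106% and 0.171%). Only 1500015A07Rik, Trim12a and Tmlhe did so with a gap of at least 0.5 on the log2 scale (0.0245%). Of these 34 genes, the Brca1hom CRC allograft 1 lay on the CYP19A1 side for 25, and the other Brca1hom libraries for 7 to 19.

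The groups differed in size of difference but shared little of it. At least a 2-fold difference was seen for 819 genes in CRC culture (6.68%) and 613 in EpiC culture (5.0%), each between 2 single libraries, and for 1581 in CRC allografts (12.9%) and 2300 in EpiC allografts (18.7%). Across the 12269 genes the differences of 1 group correlated with those of another at −0.0456 to 0.146, given as a description, since genes of a library are not independent.

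In the allografts alone, 0 of 11965 genes were called and 960 had an unadjusted p under 0.05 (8.02%). In the cultures alone, with 1 residual degree of freedom, 0 of 11713 were called and 628 had an unadjusted p under 0.05 (5.36%, limma). The genotype effect differed between allografts and cultures for 0 genes after adjustment (447 at an unadjusted p under 0.05, 3.64%, limma). It differed between the media for 1 gene (0.00815%, with 561 or 4.57% at an unadjusted p under 0.05, limma).

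That gene was Il17b, a cytokine of the interleukin-17 family. It was at 62.5 FPKM in CYP19A1 CRC culture and 13.2 FPKM in 6C, against 2.11 FPKM in Brca1het CRC culture and 0, 0.0462 and 0 FPKM in 10B, 10C and 11C. In EpiC it was at 0.0736 FPKM and 0 in CYP19A1 culture and 7B, and at 0.0598 FPKM, 0 and 0 in Brca1het culture, 4C and 5A. The gene was therefore high in the 2 CYP19A1 CRC libraries and at or near 0 in the other libraries except Brca1het CRC culture. The EpiC minus CRC difference in the genotype effect was −4.02 (SE 0.366, adjusted p = 0.0185, limma). The call was lost with a pseudocount of 0.1 (adjusted p = 0.313) and without any one of 7B, 10B, 10C, 11C or 4C (adjusted p = 0.0669 to 0.129, limma).

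The pathway lists were read as counts and medians beside those of all tested genes, whose median difference was −0.0035. No list had a called member. Among DNA replication genes 22 of 26 had a fitted difference below 0, 10 had values lower in all 4 groups and 6 of those did not overlap within any group, with a median of −0.27. For comparison, 7.42% of all tested genes were lower in all 4 groups and 2.96% without overlap, and mitosis genes, which act later in the same cycle, had a median of 0.06 with 15 of 24 above 0. Fen1, which trims Okazaki fragments, was at 20.6, 11.6, 22.4 and 13.2 FPKM in CYP19A1 CRC culture, EpiC culture, 6C and 7B. In Brca1het it was at 32.5 and 22.2 FPKM in the cultures, 33.6, 40.6 and 38.6 FPKM in 10B, 10C and 11C, and 21.3 and 27.6 FPKM in 4C and 5A. It did not overlap within any group, at −0.77 (SE 0.174, adjusted p = 0.592, limma). The Brca1hom libraries read 18.7 and 20.2 FPKM in the CRC and EpiC cultures and 20.3, 23.1 and 26.5 FPKM in allografts 1, 2 and 12. Between CYP19A1 and Brca1hom, Fen1 differed by −0.19 (SE 0.19, adjusted p = 0.948, limma) and Rrm2 by 0.03 (SE 0.26), so neither set CYP19A1 apart from Brca1hom. The mean log2(FPKM + 1) of the list was 4.27, 4.51 and 3.92 in CYP19A1, Brca1het and Brca1hom CRC culture. In EpiC culture it was 4.05, 4.39 and 4.30. Rrm2, a ribonucleotide reductase subunit, differed by −0.62 (adjusted p = 0.812) and Cdc45, a helicase cofactor, by −0.63 with −1.56 in EpiC allografts and −0.01 in CRC culture. The other 7, Mcm3, Mcm4, Mcm7 and Mcm10 (helicase subunits and loading), Cdc6, Rpa2 and Tk1, also lay below 0 in all 4 groups, none past the test.

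**Figure D4:**
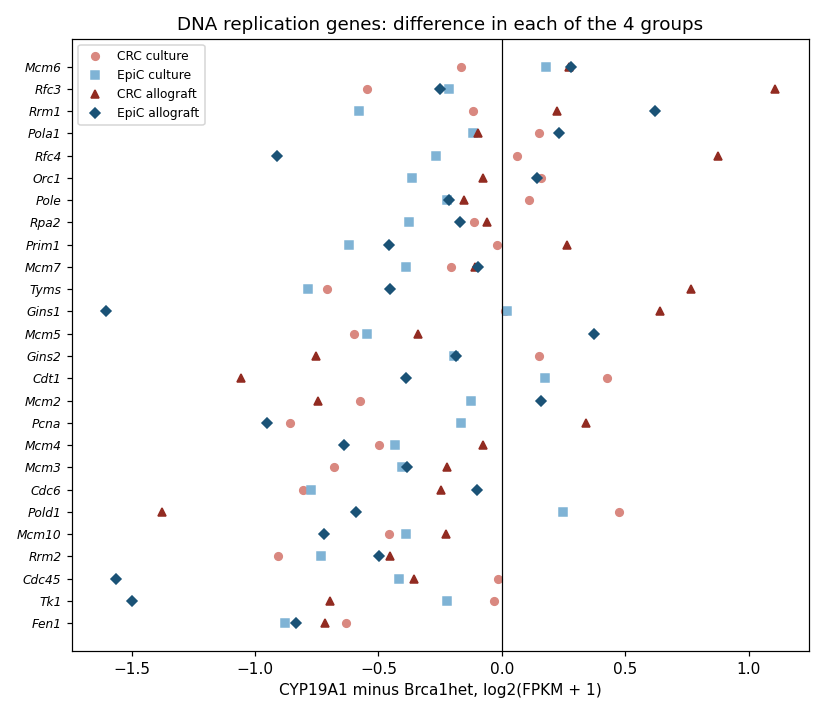
CYP19A1 minus Brca1het difference in log2(FPKM + 1) on the horizontal axis for 26 DNA replication genes, with 1 symbol a group; groups with several Brca1het libraries use their mean. The symbols of 10 genes all lie left of 0, and those of Fen1 lie between −0.88 and −0.63.

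The promoters of the replication genes lower in all 4 groups were searched for TTTCCCGC, a form of the E2F site, on both strands. It was present in 3 of the 9 with a RefSeq promoter, in 5 of 22 tested DNA replication genes, in 2.39% of 9234 tested genes and in 1.07% of 32851 promoters. The 3 promoters are shown because they hold the site, in capitals as it reads on the printed strand (RefSeq GRCm38.p6, a window around the transcription start); the files' own build is mm9, so the coordinates are those of the RefSeq table only.
Mcm3, chr1:20820263-20820562, minus strand: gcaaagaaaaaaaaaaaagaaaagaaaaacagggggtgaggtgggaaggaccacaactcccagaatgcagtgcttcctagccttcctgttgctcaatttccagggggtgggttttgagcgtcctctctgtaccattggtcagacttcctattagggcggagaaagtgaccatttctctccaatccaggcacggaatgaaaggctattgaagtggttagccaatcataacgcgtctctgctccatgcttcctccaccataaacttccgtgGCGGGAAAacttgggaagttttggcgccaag
Mcm7, chr5:138171834-138172133, minus strand: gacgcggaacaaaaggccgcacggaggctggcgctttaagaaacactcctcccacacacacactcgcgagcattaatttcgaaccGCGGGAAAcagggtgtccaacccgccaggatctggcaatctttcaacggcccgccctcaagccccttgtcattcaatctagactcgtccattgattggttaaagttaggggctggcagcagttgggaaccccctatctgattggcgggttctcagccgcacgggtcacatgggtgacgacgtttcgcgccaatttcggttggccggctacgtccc
Cdc6, chr11:98907901-98908200, plus strand: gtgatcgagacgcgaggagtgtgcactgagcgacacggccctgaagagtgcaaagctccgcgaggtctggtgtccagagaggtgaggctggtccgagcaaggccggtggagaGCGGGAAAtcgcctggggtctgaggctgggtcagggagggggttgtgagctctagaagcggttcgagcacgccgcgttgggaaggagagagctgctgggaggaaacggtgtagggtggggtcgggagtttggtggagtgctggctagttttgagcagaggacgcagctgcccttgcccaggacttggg
A match is a description of these letters. The palindromic oestrogen response element (GGTCA, any 3 bases, TGACC) was found in 0 of 11 named genes with a promoter and in 0 of 9234 tested genes, and its single arm AGGTCA in 3 of 11 (Irak3, Srp9 and Krt8) and 14.6% of tested genes.

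No oestrogen response gene passed the test in the cells with the aromatase transgene, where only 2 of all 12269 tested genes did (0.0163%). With so few calls, 0 of 22 says little about this list. Of 30 listed genes, 22 reached the filter and were tested. Of these, 11 had a difference above 0, with a median of −0.07. In all 4 groups, 0 were higher and 3 lower (Ccnd1, Cxcl12 and Krt19), beside 7.03% and 7.42% of all tested genes. Krt19, a luminal keratin, differed by −0.95 (SE 0.315, adjusted p = 0.812, limma). Hspb8, a small heat-shock protein, differed the other way by 1.28 (SE 0.611, adjusted p = 0.812, limma), with 4.21 in EpiC allografts and −0.37 in CRC culture. Among steroid-pathway genes the median was 0.08 over 14, and Srd5a1, which reduces testosterone, was lower without overlap within any group, by −1.17 (adjusted p = 0.715, limma). Of 25 luminal genes 5 were lower and 0 higher in all 4 groups, and these were Krt8, Krt18, Krt19, Aldh1a3 and Ovol1, with a list median of −0.01. Krt18, the partner of Krt8, was at 18.1 to 317 FPKM in CYP19A1 and 73.3 to 943 FPKM in Brca1het (−1.29, adjusted p = 0.718, limma). Epcam, by contrast, differed by 0.14 and Cdh1 by −0.41. The basal list had a median of 0.10 over 19 genes, with 11 above 0, 1 higher and 2 lower in all 4 groups, and medians of 0.21 and 0.28 in CRC and EpiC culture against −0.39 and −0.21 in CRC and EpiC allografts. Its member Tagln, a smooth-muscle actin-binding protein, was lower in all 4 groups by −2.12 (SE 0.338, adjusted p = 0.216, limma).

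The p53 target list had a median of 0.07 over 38 genes, with 4 higher and 2 lower in all 4 groups, the lower ones being Bax and Sesn2. Its 4 genes with an unadjusted p under 0.05 (limma) were higher in CYP19A1, as were 2.84% of all tested genes at that threshold. They were Fas, Gadd45a, Ckap2 and Trp53 itself, whose largest group difference was 3.30 in EpiC culture. Cdkn1a and Mdm2, leading targets of p53, differed by −0.15 and −0.25. The homologous recombination list had a median of 0.08 over 31 genes, with 3 higher and 1 lower in all 4 groups. Cdkn1c, an imprinted inhibitor of cyclin-dependent kinases, was at 26.7, 1.18, 135 and 19.2 FPKM in CYP19A1 CRC culture, EpiC culture, 6C and 7B. The Brca1het values were 3.23 and 1.05 FPKM in the cultures, 12.7, 14.3 and 14.6 FPKM in 10B, 10C and 11C, and 0.658 and 3.97 FPKM in 4C and 5A. The gap was wide in 3 groups and 0.09 in EpiC culture, with a fitted difference of 2.35 (SE 0.464, adjusted p = 0.592, limma). E2f1, an activator of replication genes, differed by −1.07 (adjusted p = 0.812, limma).

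Of 12 tested Hox genes, 11 had a difference above 0, with a median of 0.41 and 3 higher in all 4 groups. The median of the 12 tested genes was 0.89 in EpiC allografts and −0.0019 in CRC allografts. Hoxb9 differed by 0.90 (adjusted p = 0.753, limma).

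Sums of marker genes for other cell types also differed between the allografts. The 18 measured macrophage markers summed to 15495 FPKM in 6C against 4844 to 5977 FPKM in 10B, 10C and 11C, but to 7277 FPKM in 7B against 5531 and 15457 FPKM in 4C and 5A. The 15 skeletal muscle markers summed to 11.7 and 6.15 FPKM in 6C and 7B, and to 12.4 to 684 FPKM in the 5 Brca1het allografts. The 12 granulocyte and mast cell markers summed to 68.2 and 67.2 FPKM in 6C and 7B. The 5 Brca1het allografts were at 106 to 563 FPKM. The 14 adipocyte markers summed to 162 and 106 FPKM against 165 to 303 FPKM. By sums, both CYP19A1 allografts lay below all 5 in these 3 lists. By mean log2(FPKM + 1) over the markers, this held only for the granulocyte and mast cell list. That mean for muscle was 0.555 in 6C and 0.497 in 5A, with 13 of 15 markers under 1 FPKM in each. For adipocytes it was 1.18 in 6C and 1.76 in 7B against 1.16 in 11C. The part of these cells in the allograft differences was not tested. In the cultures the macrophage markers summed to 45.6 to 87.9 FPKM, with 14 to 16 of 18 under 1 FPKM. The granulocyte and mast cell markers summed there to 53.9 to 838 FPKM and the skeletal muscle markers to 28.5 to 107 FPKM. The adipocyte markers summed to 84.2 to 195 FPKM in the cultures, so these 3 sums were not particular to the allografts. Antigen presentation genes had a median of 0.96 in CRC allografts and −1.42 in EpiC allografts, and interferon response genes 0.53 and −1.51.

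By chromosome, the same sign without overlap was uneven. On chromosome 3, 49 of 619 genes were higher in this way (7.92%, against 3.18% of all), with a median of 0.21, and on chromosome 8, 44 of 660 (6.67%). The chromosome 3 median was 0 and 0.0063 in CRC and EpiC culture and 0.28 and 0.41 in CRC and EpiC allografts. For chromosome 8 these were −0.0096 and 0.23 in the cultures and −0.15 and 0.51 in the allografts, so its direction differed between groups. On chromosome 19, 35 of 430 were lower (8.14%, against 2.96%), with a median of −0.25, and on chromosome 10, 37 of 578 (6.40%). The chromosome 19 median was −0.59 in CRC allografts and −0.25 in EpiC allografts, and −0.03 and −0.0028 in the cultures. The chromosome 10 median was −0.032 in CRC allografts and −0.15 in EpiC allografts, and 0.0025 and −0.28 in CRC and EpiC culture. Between single libraries, with the median of all tested genes subtracted, 6C lay below 10B, 10C and 11C on chromosome 19 by −0.594, −0.631 and −0.568. On chromosome 8, 7B lay above 4C and 5A by 0.567 and 0.504, while 6C lay below 10B, 10C and 11C by −0.0051, −0.041 and −0.414. Libraries of Brca1het also differed from each other, by −0.462 for 10B minus 11C on chromosome 8, one of the chromosomes named above, and by 0.546 for 4C minus 5A on chromosome 6. The pair of CRC cultures stayed between −0.0308 and 0.0573 on all chromosomes, while the pair of EpiC cultures ranged from −0.276 on chromosome 10 to 0.238 on chromosome 8.

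**Figure D5:**
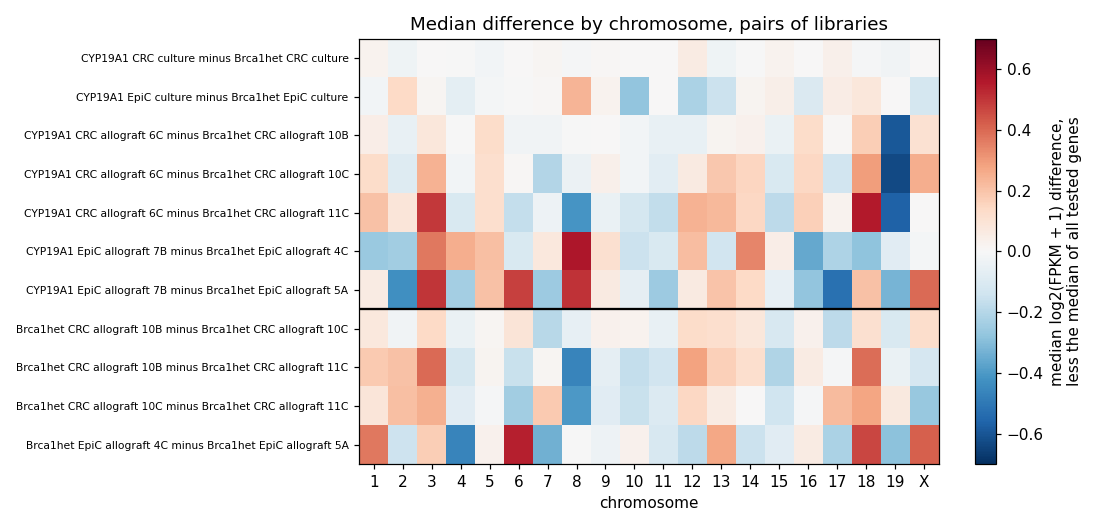
Median difference in log2(FPKM + 1) over the tested genes of a chromosome (horizontal axis) for pairs of libraries (vertical axis), less the median of all tested genes of the pair, in red where the first library is higher; pairs above the black line are CYP19A1 minus Brca1het and those below are both Brca1het. Chromosome 19 is blue in all 3 pairs with 6C, and pairs of Brca1het allografts show medians as far as 0.546.

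Runs of 30 neighbouring tested genes were picked for having the most genes without overlap on their chromosome, so a high count follows from the search. Of all tested genes, 3.18% were higher and 2.96% lower without overlap. The densest run was on chromosome 8 from Alg11 to Bag4, where 12 were higher without overlap, including Plat, Adam9, Tacc1 and Ddhd2. Its median was 0.09 and 0.29 in CRC and EpiC culture and 0.99 and 0.69 in CRC and EpiC allografts. On chromosome 10, from Med16 to Tcf3, 9 of 30 were lower without overlap, with a median of −0.47. By group that median was −0.032 and −0.058 in CRC and EpiC culture and −0.75 and −0.87 in CRC and EpiC allografts.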

How the data were processed

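FPKM values were deposited by the authors as 1 table of 16 libraries and 23993 gene symbols. Per the submitters' processing notes, the tools were FastQC, Trim Galore, TopHat and Cufflinks and the genome build was mm9, with no version of any tool; the annotation is not given in the sources used here. The second table of the series holds other libraries, was normalised separately and was not used.

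Groups were taken from sample titles. limma 3.58.1 in R 4.3.3 (lmFit, eBayes with trend) was fitted to log2(FPKM + 1) with the 4 medium-by-state groups as covariate, in the 12269 genes averaging 1 FPKM or more (6 residual degrees of freedom). Differences are CYP19A1 minus Brca1het and understate changes of low genes. Calls used a Benjamini-Hochberg adjusted p under 0.05 over all tested genes. Depth cannot be read from FPKM, so no counting interval is given. The fit was run on simulated data with independent noise for each gene and library. Shared donors and mixed host cells were not simulated, so that run does not address them.

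Named genes were the study's genes; 12 a direction with the same sign in all 4 groups, at least 5 FPKM in the higher genotype and the largest smallest difference; and, of each of 32 gene lists, up to 4 called members or else the 2 with the smallest p. Only some of these are given. Members and lists were chosen with earlier results of these data known. 12218 genes (99.6%) matched RefSeq GRCm38.p6, used for names, chromosomes and promoters. The settings varied were the filter (none, or 5 FPKM), the pseudocount (0.1), median-ratio scaling, no trend, 10B and 10C as 1 sample, all 16 libraries, subsets by state or medium, and leaving out each library. The contrast with Brca1hom, the separation over all libraries, pairs of libraries, runs of neighbours and the alternatives of Il17b were added after seeing the data.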

Additional observations from a re-analysis of the deposited data

Results flagged for a closer look

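The genotype effect on Il17b differed between the media by −4.02 (SE 0.366, adjusted p = 0.0185, limma), a difference between groups tested as an interaction. The gene was at 62.5 and 13.2 FPKM in the CYP19A1 CRC culture and 6C and at 0.0736 FPKM or 0 in the CYP19A1 EpiC libraries. With a pseudocount of 0.1 the difference was −6.01 and was no longer called (adjusted p = 0.313), and it lost the call without 7B, 10B, 10C, 11C or 4C (adjusted p = 0.0669 to 0.129, limma).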

How the results depend on the processing

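The count of 2 called genes became 3 with a pseudocount of 0.1 and in CRC libraries alone, stayed at 2 with median-ratio scaling or without the trend, and became 1 with all 16 libraries. It was 0 without a filter, with a filter at 5 FPKM, with 10B and 10C as 1 sample, in cultures, in allografts and in EpiC libraries alone, and 0 to 1 when 1 library was left out. The 11 genes at least 2-fold apart became 31 with a pseudocount of 0.1, 1772 at any size and 9 when overlap was not allowed. Leaving out 1 library gave 9 to 37; leaving out a culture or a CYP19A1 allograft removes a group from the rule, which leaves fewer conditions to meet. Leaving out 1 library gave 0 to 9 genes in allografts alone, 0 to 17 for genotype by state and 0 to 19 for genotype by medium, which had 0 with a pseudocount of 0.1. No fit without 1 library was possible in cultures alone, which leave no residual degrees of freedom.

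Over named genes and alternatives, 1820 results kept direction and side of the threshold, 39 lost the call, 1 gained it (Cdkn1c, 3.0 in CRC libraries alone, adjusted p = 0.0236, limma) and 15 changed sign, all for uncalled genes of the cell-type and X-inactivation lists. Without 1 library, Cnp ranged from −0.147 to 0.0673, Cd4 from −0.461 to 0.0593, Eif2s3x from −0.515 to 0.0559 and Mbp from −0.126 to 0.321. The sign also changed in CRC libraries alone for Cnp (0.0812) and Cd4 (0.0831), and in EpiC libraries alone for Eif2s3x (0.0803), Tnnc2 (0.215) and Xist (0.00542). It changed in cultures for Cnp (0.0217), Egfl7 (0.138) and Xist (0.124), in allografts for Mbp (−0.0707), and with 16 libraries for Cnp (0.0259). The cause was not tested. No paired analysis was possible because the sample titles link no CYP19A1 library to a particular Brca1het library. Depth is unknown, so low values such as those of Trim12a have no counting error.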
